A study of Mus musculus with 12 samples.

Results

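The expression of 40 genes of autophagy and the lysosome was measured in the livers of mice fed norUDCA. The members were the rows of the deposited read count table that carry the symbols of a fixed list of 40 genes, out of 35275 genes in the table. All 40 were found and all 40 passed the filter on low counts, as did 12378 genes in total. Of the members 25 act on the autophagosome, 13 in the lysosome, and 2, Tfeb and Tfe3, encode transcription factors that act on both. The mice were male C57Bl/6J mice aged 13 weeks that ate chow or a diet containing 0.5% norUDCA for 1 week, after which the liver was frozen. The sample titles mark every library of both diets WT, and no genetic change is named. Each diet had 6 liver libraries, numbered 2, 3, 7, 8, 16 and 17 for chow and 9, 10, 11, 12, 13 and 20 for norUDCA. Whether each library stands for its own animal is left unsaid in the labels, so every p measures the spread between libraries. NorUDCA, norursodeoxycholic acid, is ursodeoxycholic acid with a shortened side chain, and it has been studied as a treatment of cholestatic liver disease.

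In autophagy, a cell encloses its own proteins, lipids or organelles in a membrane, the autophagosome, which then fuses with a lysosome. The ULK1 kinase complex starts the process, the class III PI3-kinase complex with Beclin-1 marks the growing membrane with a phosphoinositide, and a ubiquitin-like conjugation system couples the ATG8 proteins (the LC3 and GABARAP families) to lipid on it. Cargo receptors such as p62 bind both the cargo and the ATG8 proteins. In the lysosome, cathepsins, glycosidases and lipases degrade what arrives, and carriers in the membrane return the products. In liver, this route turns over mitochondria, glycogen and lipid droplets. TFEB and TFE3 bind an E-box with the core CACGTG, the centre of the CLEAR element found near many lysosomal genes.

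Under norUDCA, 8 of the 40 members rose and 6 fell. The lysosomal genes Npc1, Ctsd, Gaa, Hexa and Lipa and the autophagosome genes Sqstm1, Gabarapl1 and Bnip3 rose by 1.19-fold to 1.59-fold. Those that fell were all autophagosome genes, namely Map1lc3a, Gabarapl2, Ulk1, Atg13, Becn1 and Wipi1, by 1.19-fold to 1.56-fold. A gene was counted as changed when its p in edgeR's quasi-likelihood F test, adjusted over all 12378 genes after Benjamini and Hochberg, was under 0.05. By that rule 35% of the members changed, against 15.3% of all genes. The members were chosen with earlier results of these data known, so this share describes only the chosen genes. Among 136 tested pathway genes outside the members, 16.2% changed. Of all genes 6.73% rose and 8.62% fell. In 12 members no chow library reached the range of the norUDCA libraries, 6 being higher and 6 lower under norUDCA, a gap found in 7.66% of all genes (3.59% higher and 4.07% lower). The median log2 fold change was 0.01 over the members and -0.00 over all genes. The scaling used assumes that most genes do not change, which holds the median of all genes near 0. With scaling by total counts the medians were 0.16 over the members and 0.15 over all genes. Then 14 members passed as higher and 2 as lower, so the split of directions depended on the scaling. Among the 26 members that did not pass, adjusted p ran from 0.0575 for Lamp1 to 0.975 for Nbr1.

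**Figure D1:**
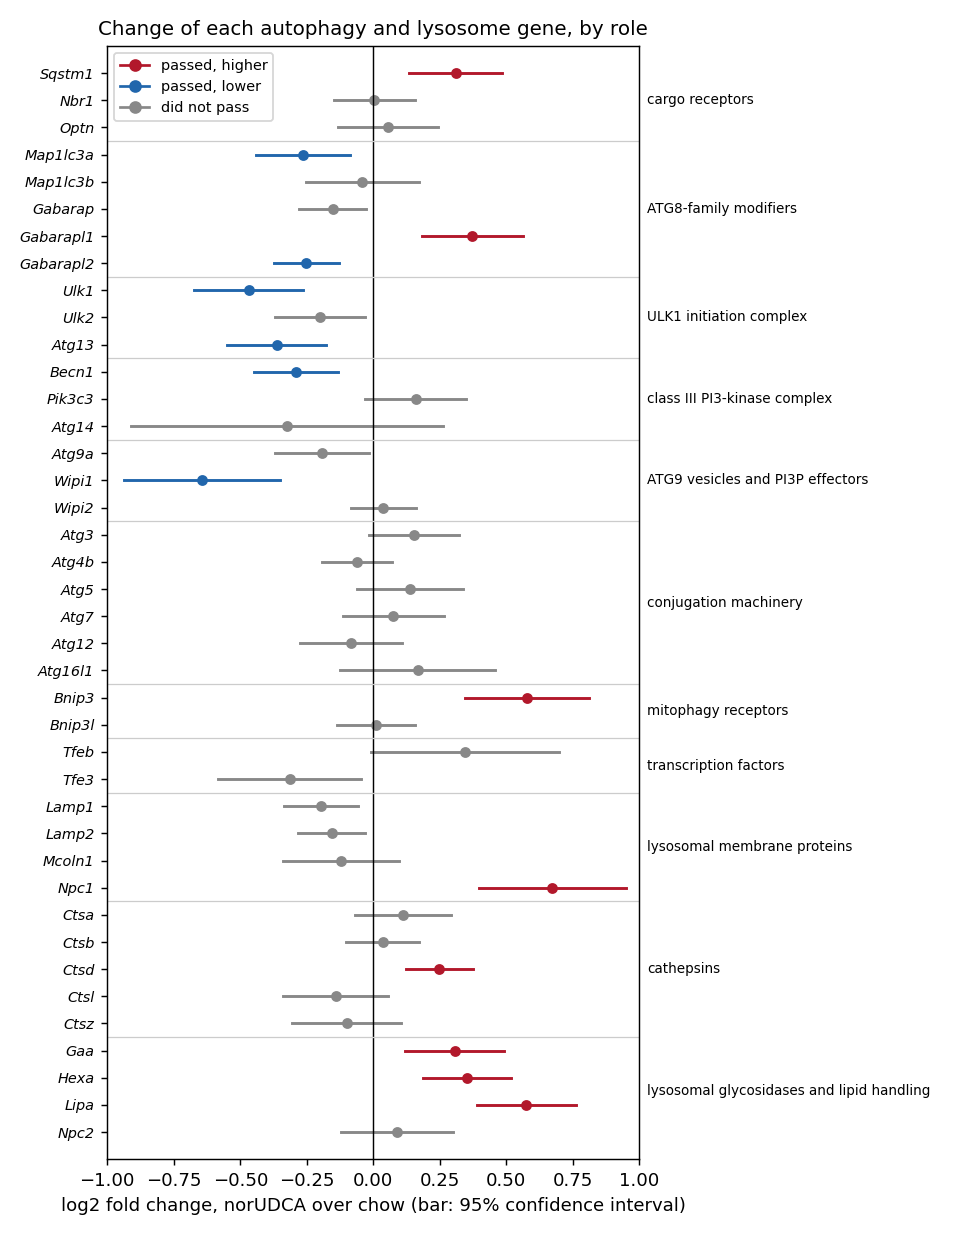
The log2 fold change of norUDCA over chow (horizontal axis) is plotted for each of the 40 members (vertical axis), grouped by role, with a bar for the 95% confidence interval of the edgeR fit, 6 libraries per diet. Red points (8) passed the test and were higher under norUDCA, blue points (6) passed and were lower, and gray points (26) did not pass.

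The total count was 12209706 to 13715026 in the chow libraries and 14065837 to 15342922 in the norUDCA libraries, and levels are given as CPM, a gene's counts relative to the library size corrected by a TMM factor. These factors are set on the assumption that most genes do not change. The TMM factors were 0.916 to 0.974 under chow and 1.02 to 1.07 under norUDCA, so the diets did not overlap in depth or in scaling. Chow replicate 2 had the lowest median correlation with the other libraries of its diet (r = 0.969, across genes), and the others had 0.977 to 0.982. Without it, 8 members rose and 5 fell.

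Stretches of 3 promoters of members that rose, and of the promoter of Lamp1, which had the most matches of any member, are printed because they hold the E-box core. Promoters were taken from RefSeq (GRCm38.p6) as the 250 bases before and 50 after a start site, and were found for 32 of the 40 members. The letters CACGTG read the same on both strands. They occurred in 7.15% of the 32851 promoters of the table and in 11 of the 37 promoters of members, as some members had more than 1 promoter. Counted by gene, 11 of the 32 members had a match, 6 of 11 lysosomal and 5 of 19 autophagosome genes. Among members that rose they were in 3 of 7 (Ctsd, Gaa and Bnip3), among those that fell in 0 of 4, and among the rest in 8 of 21. The other members with a match were Atg14, Atg3, Atg5, Atg7, Ctsa, Ctsl, Lamp1 and Mcoln1. The start site of the Atg7 promoter lay 27999 bases from the deposited start of the gene. The longer form TCACGTGA, which contains the core, was in 0.974% of all promoters and in 4 of the 37 promoters of members (Atg3, Mcoln1, Ctsa and Ctsd). The antioxidant response element core TGACNNNGC, searched on both strands, was in 12.4% of all promoters. It was in 6 of the 37 promoters of members (Map1lc3b, Ulk2, Atg13, Ctsd, Ctsz and Hexa). No promoter was matched for Map1lc3a, Becn1, Pik3c3, Atg12, Atg16l1, Bnip3l, Npc1 and Ctsb. The sequences run 5′ to 3′ along the gene with CACGTG in capitals. They lie at chr8:13159080-13159160 (plus strand) for Lamp1, chr7:142388040-142388077 and chr7:142387910-142387935 (minus strand) for Ctsd, chr11:119267796-119267855 (plus strand) for Gaa and chr7:138909582-138909641 (minus strand) for Bnip3.
Lamp1: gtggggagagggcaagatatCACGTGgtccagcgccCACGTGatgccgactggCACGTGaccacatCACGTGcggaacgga
Ctsd, distal: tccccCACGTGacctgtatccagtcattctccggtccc
Ctsd, proximal: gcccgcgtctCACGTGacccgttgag
Gaa: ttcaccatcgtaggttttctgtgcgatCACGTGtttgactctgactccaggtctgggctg
Bnip3: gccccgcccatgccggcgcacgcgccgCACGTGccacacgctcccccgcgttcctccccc
The Lamp1 stretch holds 4 matches within 81 bases, yet Lamp1 was not among the genes that rose. The start site used for Ctsd lay 211 bases from the deposited start of the gene. All 26 bases of the proximal Ctsd stretch and 26 of the 81 Lamp1 bases lie inside the deposited genes. A match in these letters is a description of the promoter and shows neither binding nor activity.

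Among the cargo receptors 1 of 3 rose. Sqstm1 (ENSMUSG00000015837, chromosome 11, 50199366 to 50210827) encodes p62, which carries ubiquitinated cargo to the autophagosome and is itself degraded there. Its level was 381 CPM in the lowest, 437 in the median and 482 in the highest chow library, and 453, 545 and 588 CPM under norUDCA. Of the norUDCA libraries 5 lay above every chow library, and the diets overlapped through norUDCA replicate 9. The mean went from 429.8 ± 36.8 to 533 ± 49.1 CPM (SD, n = 6 each), a log2 fold change of 0.31 (SE 0.08, with adjusted p = 0.0193). This call was lost without chow replicate 7 (adjusted p = 0.0549) or chow replicate 8 (adjusted p = 0.0530). Nbr1, a receptor of similar build, and Optn, optineurin, a receptor for mitochondria and bacteria, did not pass, with log2 fold changes of 0.00 and 0.05.

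Of the 5 genes of ATG8 proteins, which are joined to the autophagosome membrane and recruit cargo and fusion factors, 1 rose, 2 fell and 2 did not pass. Gabarapl1 (ENSMUSG00000030161, chromosome 6, 129533200 to 129542331) rose, whereas Map1lc3a and Gabarapl2 fell. For Gabarapl1 the lowest, median and highest chow libraries had 242, 288 and 299 CPM and the norUDCA libraries 327, 354 and 450.3 CPM. All norUDCA libraries were above all chow libraries, and the means were 282 ± 20.2 and 366 ± 48.9 CPM (SD over 6 libraries; log2 fold change 0.37, SE 0.09, adjusted p = 0.0114). Gabarapl2 (ENSMUSG00000031950, chromosome 8, 111940703 to 111953612) had 41.8, 42.8 and 46.5 CPM under chow and 34.4, 36.6 and 38.7 CPM under norUDCA, again with no overlap but in the opposite direction. Its log2 fold change was -0.25 ± 0.06 (SE; adjusted p = 0.00826). Map1lc3a (ENSMUSG00000027602, chromosome 2, 155276297 to 155278073), the gene of LC3A, had 39.4, 41.5 and 44.3 CPM under chow and 29.6, 34.6 and 40.4 CPM under norUDCA. Its norUDCA libraries were below every chow library with the exception of replicate 12, and the log2 fold change of -0.26 (SE 0.08, with adjusted p = 0.0433) lay close to the threshold. It was lost in 14 of 19 alternative analyses, 10 of them the omission of 1 library (chow replicates 2, 3, 7, 8, 16 or 17, or norUDCA replicates 9, 10, 11 or 13 in turn; adjusted p from 0.0594 to 0.115). Map1lc3b, whose product LC3B is the usual protein marker of autophagosomes, ranged over 118, 142 and 171 CPM under chow and 124, 135.3 and 159 CPM under norUDCA. These ranges lay over each other, and the gene did not pass (log2 fold change -0.04, SE 0.10, adjusted p = 0.824). Gabarap had a log2 fold change of -0.15 (adjusted p = 0.0983), with 5 norUDCA libraries below every chow library.

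Of the kinase complex that starts autophagy 2 of 3 members fell. Ulk1 (ENSMUSG00000029512, chromosome 5, 110784488 to 110810097) encodes its kinase. It had 176, 217 and 264 CPM in the lowest, median and highest chow libraries and 134, 157 and 172 CPM in the norUDCA libraries. No library of one diet reached into the range of the other. The mean went from 218 ± 30.6 to 158 ± 14.3 CPM (SD, n = 6), 1.38-fold lower (log2 fold change -0.47, SE 0.10, adjusted p = 0.00461). Atg13 (ENSMUSG00000027244, chromosome 2, 91674618 to 91710576), the scaffold that ULK1 binds, had 62.2, 71.0 and 89.1 CPM under chow and 52.4, 57.1 and 60.3 CPM under norUDCA. It too showed no overlap, and its log2 fold change was -0.36 ± 0.09 (SE; adjusted p = 0.0112). The paralog Ulk2 had a log2 fold change of -0.20 that did not pass (adjusted p = 0.105), but passed when norUDCA replicate 9 was left out (adjusted p = 0.0317).

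Downstream of that complex, Becn1 and Wipi1 fell. Becn1 (ENSMUSG00000035086, chromosome 11, 101285952 to 101302286) encodes Beclin-1, the regulatory subunit of the class III PI3-kinase complex. The lowest, median and highest chow values were 26.0, 27.5 and 32.1 CPM and the norUDCA values 20.7, 23.2 and 26.0 CPM. The ranges nearly touched, at 26.01 CPM in the lowest chow library and 25.98 CPM in the highest norUDCA library. Becn1 had a log2 fold change of -0.29 (SE 0.07, with adjusted p = 0.0158). Pik3c3, the catalytic subunit, did not pass (log2 fold change 0.16, adjusted p = 0.249), and neither did Atg14, the subunit that directs the complex to autophagy. Atg14 had the widest spread of any member, from 21.8 to 84.6 CPM under chow and from 31.1 to 57.0 CPM under norUDCA (log2 fold change -0.32, SE 0.27, adjusted p = 0.470), so a difference of the size seen in Ulk1 was not detectable for it with these libraries. Wipi1 (ENSMUSG00000041895, chromosome 11, 109573331 to 109611967), which reads the lipid that the PI3-kinase makes, had 19.0, 23.4 and 27.9 CPM under chow and 11.2, 16.1 and 18.2 CPM under norUDCA. Without overlap between the diets, its mean went from 23.6 ± 3.49 to 15.1 ± 3.05 CPM (SD, n = 6), 1.56-fold lower and the steepest fall among the members (log2 fold change -0.64, SE 0.14, adjusted p = 0.00617). Its relative Wipi2 had a log2 fold change of 0.04 and Atg9a, the lipid scramblase of the vesicles that seed the membrane, one of -0.19, and neither passed.

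None of the 6 conjugation genes passed with TMM scaling. With scaling by total counts Atg3 (edgeR adjusted p = 0.0202) and Atg5 (edgeR adjusted p = 0.0470) passed as higher. Atg3, Atg7, Atg5, Atg12 and Atg16l1, the enzymes and the complex that couple ATG8 proteins to lipid, and Atg4b, the protease that processes them, had log2 fold changes from -0.08 to 0.17 with TMM in edgeR's test. Of the 2 mitophagy receptors, membrane proteins of mitochondria that bind ATG8 proteins, Bnip3 rose and Bnip3l did not pass. Bnip3 (ENSMUSG00000078566, chromosome 7, 138890836 to 138909519), whose promoter is printed above with 1 match, had 116, 134 and 155 CPM in the lowest, median and highest chow libraries and 169, 193 and 267 CPM in the norUDCA libraries. Every norUDCA library exceeded every chow library. The mean went from 135.1 ± 15.7 to 202 ± 34.3 CPM (SD, n = 6), 1.49-fold higher (log2 fold change 0.58, SE 0.11, adjusted p = 0.00273). Without norUDCA replicate 20, which held the highest value, it was 0.49 (adjusted p = 0.00333). Bnip3l, also called Nix, had 72.3 ± 2.43 and 72.9 ± 6.79 CPM (SD, n = 6).

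**Figure D2:**
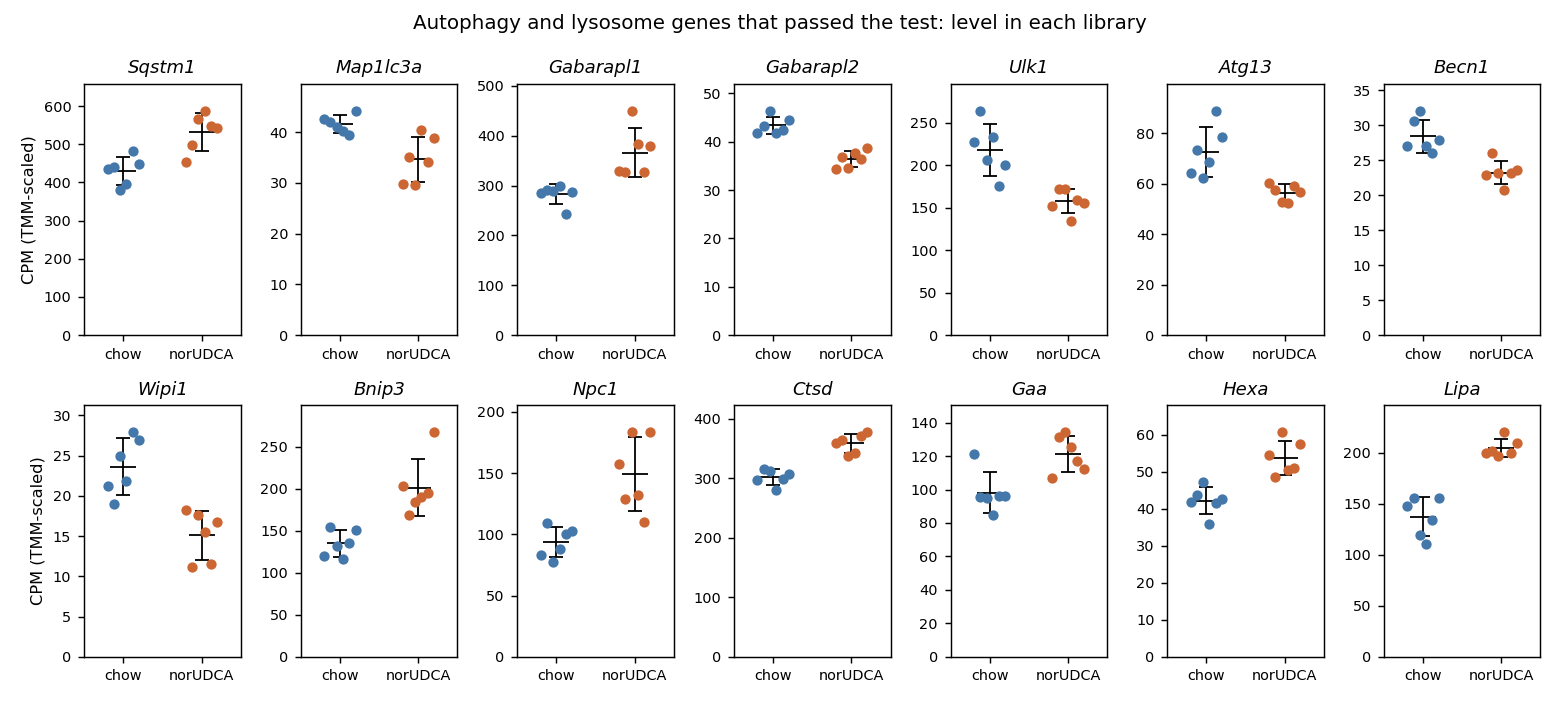
The level of each of the 14 members that passed the test is shown in CPM after TMM scaling (vertical axis, starting at 0) for the 6 chow (blue) and 6 norUDCA (orange) libraries, each point a library, with the mean and SD as bars. In Gabarapl1, Bnip3, Npc1, Ctsd, Hexa and Lipa all norUDCA points lie above all chow points, in Gabarapl2, Ulk1, Atg13, Becn1 and Wipi1 all lie below, and in Sqstm1, Map1lc3a and Gaa the diets overlap.

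In the lysosomal membrane, the gene of the cholesterol exporter rose and the main structural proteins did not pass. Npc1 (ENSMUSG00000024413, chromosome 18, 12189693 to 12236400) encodes the protein that moves cholesterol out of the lysosome. It had 77.7, 94.3 and 109 CPM in the lowest, median and highest chow libraries and 110.3, 145 and 183 CPM in the norUDCA libraries. The highest chow and the lowest norUDCA library were close to each other, but did not cross. The mean rose from 93.6 ± 12.4 to 149 ± 30.3 CPM (SD, n = 6), 1.59-fold and the steepest rise among the members (log2 fold change 0.67, SE 0.13, adjusted p = 0.00311). Lamp1 and Lamp2, the heavily glycosylated proteins that line the membrane, did not pass in edgeR's test. Lamp1 had 610.1, 649 and 692 CPM under chow and 523, 567 and 611 CPM under norUDCA, where 5 libraries were below every chow library (log2 fold change -0.20, SE 0.07, adjusted p = 0.0575). The call was made without chow replicate 3 (adjusted p = 0.0465), in DESeq2 (adjusted p = 0.00785) and in limma-voom (adjusted p = 0.0467). Lamp2 had 616, 638 and 662 CPM under chow and 536, 574 and 600.4 CPM under norUDCA with no overlap. Its log2 fold change of -0.16 (SE 0.06, with adjusted p = 0.0896) passed only in DESeq2 (adjusted p = 0.00498) among the 19 alternatives. Mcoln1, a calcium channel of the lysosome, did not pass (log2 fold change -0.12).

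The cathepsins, the proteases of the lysosome, held 1 gene that rose among 5. Ctsd (ENSMUSG00000007891, chromosome 7, 142371148 to 142388038), the aspartic protease whose promoter stretches are printed above, had 280.04, 303 and 315 CPM in the lowest, median and highest chow libraries and 337, 362 and 377 CPM in the norUDCA libraries. For Ctsd every norUDCA library lay above every chow library. Its mean went from 302 ± 12.9 to 358 ± 15.9 CPM (SD, n = 6), a small step of 1.19-fold (log2 fold change 0.25, SE 0.06, adjusted p = 0.0108). Ctsb, a cysteine protease, had 435, 469.8 and 528 CPM under chow and 471, 484 and 499 CPM under norUDCA, so that the norUDCA range lay inside the chow range (log2 fold change 0.03, SE 0.06, adjusted p = 0.763). The 95% interval of that log2 fold change ran from -0.10 to 0.17. Ctsl, another cysteine protease, had 600.1, 738 and 897 CPM under chow and 606, 658 and 709 CPM under norUDCA, likewise one range inside the other (log2 fold change -0.14, SE 0.09, adjusted p = 0.334). Ctsa, a carboxypeptidase that also shields other lysosomal enzymes, and Ctsz had log2 fold changes of 0.11 and -0.10 and did not pass.

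Of the enzymes and carriers for sugar chains and lipids, 3 of 4 rose. Lipa (ENSMUSG00000024781, chromosome 19, 34492318 to 34527474) encodes lysosomal acid lipase, which splits cholesteryl esters and triglycerides. It had 111, 141 and 156 CPM in the lowest, median and highest chow libraries and 197, 200.4 and 219.8 CPM in the norUDCA libraries. The gap between the diets was wider than the spread of the norUDCA libraries. From 137 ± 19.2 to 204 ± 8.70 CPM (SD, n = 6) it rose 1.49-fold and had the smallest p of all members (log2 fold change 0.57, SE 0.09, adjusted p = 0.000568). Hexa (ENSMUSG00000025232, chromosome 9, 59539667 to 59565105), a subunit of the hexosaminidase that degrades the ganglioside GM2, had 35.9, 42.3 and 47.2 CPM under chow and 48.6, 52.7 and 60.6 CPM under norUDCA. It rose without overlap (log2 fold change 0.35, SE 0.08, adjusted p = 0.00693). Gaa (ENSMUSG00000025579, chromosome 11, 119267887 to 119285454), the acid glucosidase that degrades glycogen in the lysosome, had 84.6, 95.9 and 121 CPM under chow and 107, 121.3 and 134 CPM under norUDCA. The diets overlapped through chow replicate 2, and 3 norUDCA libraries lay above every chow library. Its log2 fold change of 0.31 (SE 0.09, with adjusted p = 0.0293) did not pass without chow replicate 7, 8, 16 or 17 or norUDCA replicate 11 in turn (adjusted p from 0.0501 to 0.0657). Npc2, the soluble protein that hands cholesterol to NPC1, did not pass (log2 fold change 0.09).

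The transcription factor genes did not pass. Tfeb had 2.86, 3.996 and 5.38 CPM in the lowest, median and highest chow libraries and 4.02, 4.96 and 6.14 CPM in the norUDCA libraries, and was the least abundant member. The ranges overlapped, with 2 norUDCA libraries above every chow library (log2 fold change 0.34, SE 0.17, adjusted p = 0.180). Tfe3 had a log2 fold change of -0.31 (adjusted p = 0.108) and passed without norUDCA replicate 10 (log2 fold change -0.39, adjusted p = 0.0354). Both proteins are regulated largely by where they sit in the cell, which transcript levels do not show.

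Side by side and with TMM scaling, the autophagosome genes among the members changed in both directions and the lysosomal members in 1 direction. With scaling by total counts, 7 autophagosome genes passed as higher and 2 as lower (median log2 fold change 0.11). Of the lysosomal genes 6 passed as higher and 0 as lower (median 0.24). With DESeq2's size factors or upper-quartile scaling, 3 autophagosome genes passed as higher and 5 as lower. The direction that prevailed among the autophagosome genes thus depended on the scaling, reversing with total counts. With TMM, of 25 autophagosome genes 3 rose and 6 fell, 36% in all, with a median log2 fold change of -0.04. Of 13 lysosomal genes 5 rose and 0 fell, 38.5% in all, with a median of 0.09. Of all genes 15.3% changed, 6.73% higher and 8.62% lower. No lysosomal member fell in edgeR's test, but Lamp1 and Lamp2 passed as lower in DESeq2 and the log2 fold changes of 5 lysosomal members were negative. A gap between the diets was found in 7 autophagosome genes (2 higher, 5 lower) and 5 lysosomal genes (4 higher, and Lamp2 lower). Of all genes 7.66% had such a gap (3.59% higher and 4.07% lower). Summed over the lysosomal genes, the level was 3569 ± 169.7 CPM in chow and 3575 ± 61.3 CPM in norUDCA livers (SD, n = 6), a sum in which Lamp1, Lamp2 and Ctsl hold the most counts. The autophagosome sum was 2445 ± 52.2 and 2570.1 ± 109 CPM. In it Sqstm1 and Gabarapl1, which rose, hold the most counts, whereas 13 of the 25 genes had negative log2 fold changes. The groups differ in size and in the level of their genes, and the difference between them was not tested. Lysosomal genes outside the members changed in both directions, with 4 higher and 4 lower among 36 other enzymes.

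**Figure D3:**
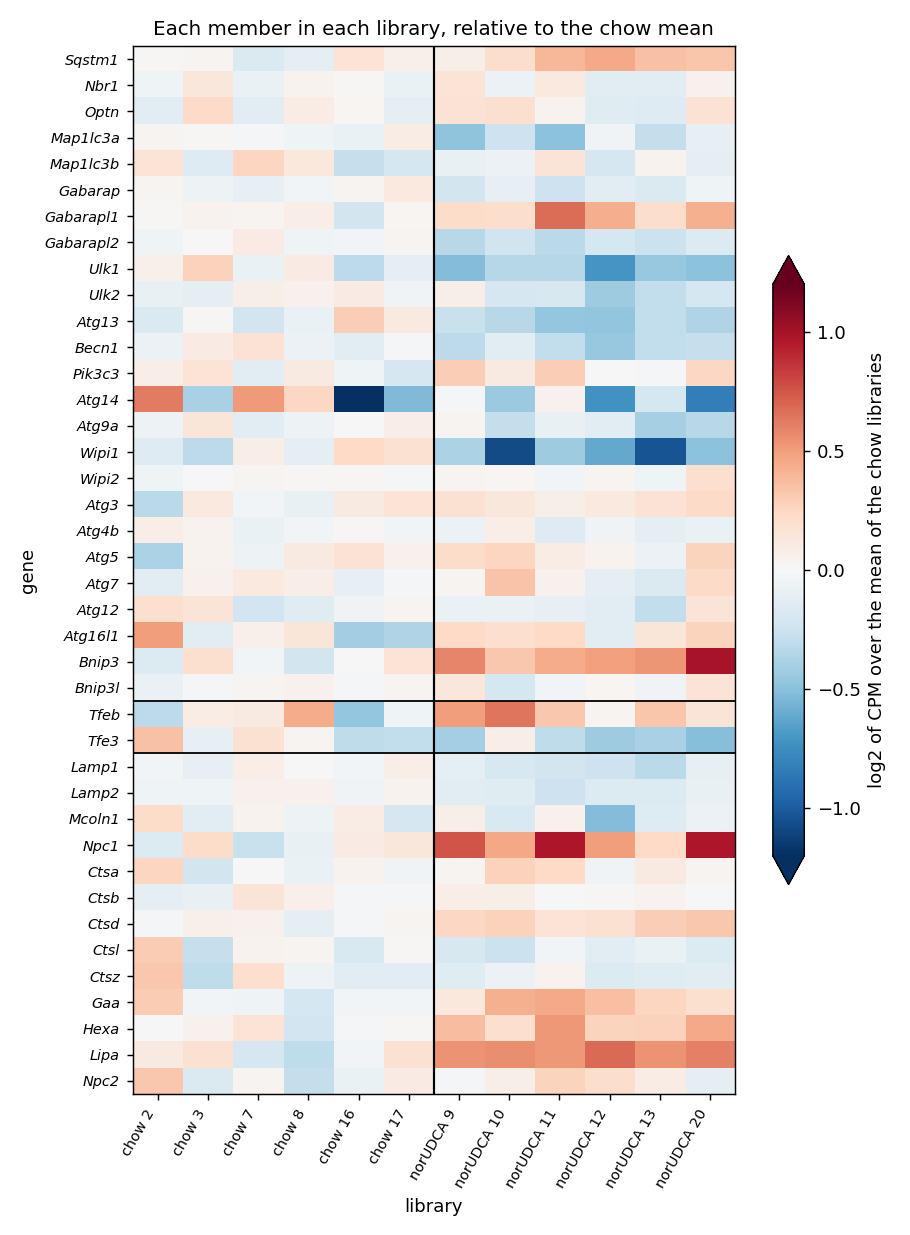
Each row is a member and each column a library (6 chow on the left, 6 norUDCA on the right), with horizontal lines setting apart the autophagosome genes, Tfeb and Tfe3, and the lysosomal genes. Color gives the log2 of the CPM over the mean of the chow libraries, red higher and blue lower, with a scale that ends at 1.2 in either direction and values from -1.34 (Atg14 in chow replicate 16) to 0.99. The rows of Lipa, Npc1, Bnip3 and Gabarapl1 are red in all norUDCA libraries and those of Wipi1, Ulk1 and Atg13 are blue.

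Per kilobase of listed gene length, the members spanned a wide range of levels under chow. Ctsl was the highest with 369 ± 52.5 CPM per kilobase, and Lamp1 followed with 290.5 ± 14.2 (SD, n = 6). The ranges of these 2 genes over the libraries overlapped. Lamp2 came next with 177 ± 6.32 CPM per kilobase, below Lamp1 without overlap. Then Sqstm1, Gabarapl1, Ctsd, Ctsz and Gabarap lay between 161 and 129.8 CPM per kilobase, each overlapping its neighbor, and Ctsb (99.9) and Bnip3 (76.9) were each set apart from the genes beside them. From Lipa at 46.2 CPM per kilobase down to Pik3c3 at 5.59 every gene overlapped the next, and Tfeb stood below them at 1.68 ± 0.382 CPM per kilobase. Under norUDCA, Gabarapl1 was at rank 3 and Lamp2 at rank 6 on this scale, and Ulk1 went from rank 13 to 18. Within a diet the SD of a member was 1.90% to 45.2% of its mean under chow (median 10.7%) and 2.53% to 24.7% under norUDCA (median 9.15%).

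Of the 6 lower calls 4 rested on the scaling. With scaling by total counts in place of TMM, the median log2 fold change of all genes moved to 0.15 and the log2 fold changes of the members moved by a median of 0.15. Then 14 members passed as higher and 2 as lower. Of the 14 genes that passed with TMM 10 still did, all 8 that rose and Ulk1 and Wipi1 among those that fell, whereas Map1lc3a, Gabarapl2, Atg13 and Becn1 kept negative values and did not pass. The log2 fold change of Ulk1 was -0.32 and that of Wipi1 -0.50 under this scaling. Members with a negative value went from 19 to 13. With DESeq2's size factors or upper-quartile scaling 8 rose and 5 fell, the lost gene being Map1lc3a in both. The plot of the 2 scalings shows the shift of each member.

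**Figure D4:**
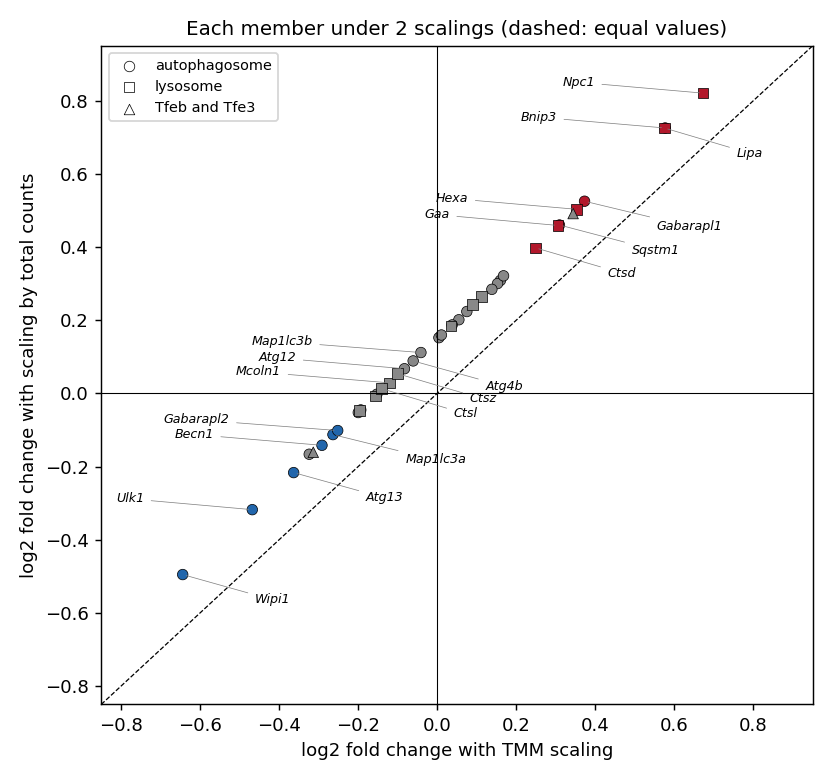
The log2 fold change of each member with TMM scaling (horizontal axis) is plotted against that with scaling by total counts (vertical axis). Circles are autophagosome genes, squares lysosomal genes and triangles Tfeb and Tfe3, colored by the call with TMM (red higher, blue lower, gray not passed), and all points lie above the dashed line of equal values, by a median of 0.15.

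Other genes of the pathway, taken from lists of 137 genes of which 136 were tested, changed about as often as all genes. Of these 9 rose and 13 fell (16.2%, against 15.3% of all genes), with a median log2 fold change of 0.01. This split moved with the scaling, to 10 higher and 10 lower with the upper quartile and 26 higher and 4 lower with total counts. The share differed by list, from 3.7% for mTORC1, AMPK and TFEB control to 26.5% for other autophagosome genes. Among these 34 other autophagosome genes 3 rose and 6 fell. Atg2a, which moves lipid into the growing membrane, fell from 104 ± 5.99 to 69.9 ± 5.38 CPM (SD over 6 libraries; log2 fold change -0.58, adjusted p = 6.61e-05), with no overlap. Bcl2l13, a further mitophagy receptor, fell from 44.7 ± 1.98 to 36.5 ± 1.89 CPM, and Snap29, a SNARE of the fusion with the lysosome, rose from 16.5 ± 2.65 to 23.3 ± 1.99 CPM. Both were without overlap between the diets.

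The proton pump and the remaining lysosomal genes were mixed. Among 17 subunits of the V-ATPase, which acidifies the lysosome, 1 rose and 2 fell. Atp6v0d2 rose from 1.74 ± 0.931 to 5.30 ± 0.894 CPM (SD over 6 libraries; log2 fold change 1.61, adjusted p = 0.000838), at a low level in both diets. Atp6v0c, the subunit of the proton-conducting ring, and Atp6ap1 fell (log2 fold changes -0.39 and -0.26). Of 36 other lysosomal enzymes 4 rose and 4 fell. Gm2a, the activator protein that works with hexosaminidase, rose from 85.6 ± 6.18 to 110.2 ± 11.1 CPM and Naglu, a glycosidase of heparan sulfate, rose from 28.4 ± 2.73 to 36.5 ± 3.44 CPM, whereas the protease Lgmn fell from 49.1 ± 9.04 to 34.2 ± 3.95 CPM. Of 22 other membrane and sorting genes 0 rose and 1 fell, the sialic acid carrier Slc17a5 (log2 fold change -0.33, adjusted p = 0.00555). Of 27 tested genes of mTORC1, AMPK and TFEB control, the kinases and their partners that set the rate of autophagy, 1 rose and 0 fell. That gene was Fnip2, a folliculin partner (log2 fold change 0.83, adjusted p = 0.0115), whose libraries overlapped.

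Markers of other liver cells moved with the diet too. In bulk liver, fewer cells of a type and less RNA per cell cannot be told apart. All 12 Kupffer cell and macrophage markers had negative log2 fold changes and 6 of them fell, among them Vsig4 (-0.97), Adgre1 (-0.90) and Clec4f (-0.83). Their summed level was 215 to 499 CPM in the chow libraries and 126 to 289 CPM in the norUDCA libraries, and none was at 0. The part of these cells in the lower autophagy genes, or in Lgmn, was not tested. The tissue label matched its hepatocyte markers, whose sum was 56740.1 to 75548 CPM under chow and 59375 to 71932 CPM under norUDCA, although 4 of 6 fell. Of the other markers 0 of 5 endothelial genes passed, 2 of 5 stellate cell genes rose (Reln and Col1a1), 1 of 4 cholangiocyte genes fell (Sox9) and 2 of 3 tested leukocyte genes fell (S100a8 and S100a9), with Cd3e and Cd79a too low to test.

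Some members share their position with other genes. Of the 40 members 12 were overlapped by another gene of the table, 9 of them by a gene with a mean of at least 10 counts. Among members that passed, Npc1 (mean 1723 counts) was overlapped on the other strand by 3110002H16Rik (mean 164.6 counts) and Sqstm1 (6729 counts) by 3010026O09Rik (36.2 counts). Partners with a larger share of counts lay on the other strand of members that did not pass. These included Fdft1 (2548 counts) for Ctsb (6610 counts), Zcchc14 (565.4) for Map1lc3b (1935) and Ankzf1 (213.8) for Atg9a (430.1). How strand was treated in the counting is not stated, so reads of such a gene and its partner could not be told apart.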

How the data were processed

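Total RNA from frozen mouse liver was extracted with TRIzol and made into NEBNext libraries. The authors deposited raw counts of reads per gene for 12 libraries. The submitters' processing notes name CASAVA, STAR and DESeq2. Their versions, the genome build and the annotation were not given in the sources used here. Other deposited tables hold the authors' own log2 fold changes, p-values, FPKM and group means, and were not used. Gene positions are those of the deposited table, and all 40 members were found by identifier in GENCODE M21, where 29 had the same coordinates.

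NorUDCA was compared with chow (6 libraries each) in edgeR 4.0.16 under R 4.3.3 (quasi-likelihood F test) with TMM scaling, filterByExpr (minimum count 10) and Benjamini-Hochberg adjustment over 12378 genes, threshold 0.05. The procedure was tested on simulated data. It called 49.3% of 67 genes with a true 1.5-fold change, 77.6% of 67 at 2-fold and 0.131% of unchanged genes. A gene that did not pass may thus still differ between the diets. CPM were computed with the TMM-scaled library sizes. Alternatives were other scalings, no filter, DESeq2 1.42.0, limma-voom (limma 3.58.1), thinning to the smallest total and omission of each library in turn. The lowest, median and highest library of each diet were given for the members that passed and for Sqstm1, Map1lc3b, Lamp1, Lamp2, Ctsb, Ctsd, Ctsl and Tfeb, and up to 3 passing genes were named per other list. A gene named outside this rule was chosen after its values were seen. The members and lists were chosen with earlier results of these data known.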

Additional observations from a re-analysis of the deposited data

Results flagged for a closer look

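Of 80 sets of 6 values (40 members in each diet), 6 held a library whose gap to the nearest other library exceeded, as a share of the whole range, the limit of Dixon's test for 6 values. Chance alone marks about 1 in 20 such sets. In the chow libraries, Gabarapl1 was low in replicate 16 (242 CPM, the others 285 to 299) and Gaa was high in replicate 2 (121 CPM, the others 84.6 to 96.0). Without these libraries both genes still rose, with log2 fold changes of 0.34 (edgeR adjusted p = 0.0252) for Gabarapl1 and 0.38 (adjusted p = 0.00457) for Gaa. In the norUDCA libraries, Bnip3 was high in replicate 20 (267 CPM, the others 169 to 203), as was Wipi2 (93.9 CPM, the others 79.0 to 83.7). Atg16l1 was low in norUDCA replicate 12 (29.3 CPM, the others 35.5 to 38.6). Tfe3 was high in norUDCA replicate 10 (39.2 CPM, the others 26.1 to 30.1), and without that library it passed the test as lower (log2 fold change -0.39, adjusted p = 0.0354).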

How the results depend on the processing

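Scaling decided the split of calls. With total counts 2993 genes passed (2428 higher, 565 lower) against 1900 with TMM (833 higher, 1067 lower). Under the remaining alternatives that kept all libraries 1626 to 2325 genes passed, with 12 to 16 members, 7 to 9 autophagosome genes, 5 to 7 lysosomal genes and 19 to 24 other pathway genes (30 with total counts). Leaving out 1 library gave 1405 to 1982 genes, 11 to 14 members, 7 to 9 autophagosome genes, 4 to 6 lysosomal genes and 15 to 23 other pathway genes. Bnip3, Npc1, Lipa, Hexa, Ctsd, Gabarapl1, Ulk1 and Wipi1 passed in the same direction in all 19 alternatives. Map1lc3b changed sign with total counts (log2 fold change 0.11), without chow replicate 7 (0.020) and without norUDCA replicate 12 (0.0033), its values without 1 library running from -0.087 to 0.020, and Ctsl did with total counts (0.013). Atg4b, Atg12, Mcoln1 and Ctsz also changed sign with total counts, where all members moved up by about the shift of all genes, and Nbr1 and Bnip3l did on omission of single libraries. None of these passed where its sign changed. Tfeb passed with total counts (log2 fold change 0.49, adjusted p = 0.0436). So did Pik3c3, Wipi2, Atg3, Atg5 and Ctsa, all as higher (edgeR adjusted p from 0.0202 to 0.0470). Becn1 missed the threshold without a filter on low counts (adjusted p = 0.0501). Depth was 12209706 counts or more in every library. The lowest count of any member in a library was 35, for Tfeb. No paired analysis was possible because the diets share no replicate numbers.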
